A study of Rattus norvegicus with 63 samples.

Results

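The 9 arrays described here profile the ventral tegmental area (VTA) of rats, and the comparison is between 3 arrays of rats with long access to cocaine and 3 arrays of cocaine naive rats. They were taken by their titles from 63 arrays of 6 brain regions, and 3 further VTA arrays of rats with short access served in the same fit. Long access rats could inject themselves intravenously with cocaine, at 0.25 mg per injection, for 6 h per day, short access rats for 1 h per day, and cocaine naive rats had no access (0 h per day). Each access group had 8 rats per the design text. How many rats, or which, stand behind an array is not given in the sources used here, so the p-values measure the spread between arrays, which may be partly technical. Strain, age and the interval between the last session and dissection are likewise not given in the sources used here.

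The VTA holds the dopamine neurons that project to the nucleus accumbens and the prefrontal cortex, together with GABA and glutamate neurons and glia. These dopamine neurons make dopamine with tyrosine hydroxylase (Th) and aromatic amino acid decarboxylase (Ddc), load it into vesicles through Slc18a2 and take it back up through the transporter Slc6a3, which cocaine blocks. Extended daily access to cocaine is a rat model in which intake escalates over sessions.

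Signals are given as log2 of the MAS5 intensity after each array was brought to the same trimmed mean, so that a difference of 1 is a 2.00-fold change, and "called" means an adjusted p under 0.05 with limma. The labelled tissue was checked against its markers. Th averaged 13.62 over the 9 VTA arrays, against at most 9.73 on any array of another region, and Th, Slc6a3, Slc18a2, Ddc, Sncg and Chrna6 were each above every other array on all 9 VTA arrays, which makes 6 of the 7 dopamine neuron markers on the array. The other marker, the D2 receptor Drd2, was highest in the nucleus accumbens. Camk2a, a kinase of forebrain neurons, and the cytokine Tnf were at the floor of 5 on all 9 VTA arrays. Each was the only member of its marker list to be so. Tnf also averaged between 5 and 5.12 in the other 5 regions, so its floor level does not set the VTA apart. Of the 8 forebrain neuron markers on the array, 0 were highest in the VTA, though Nptxr averaged 8.36 and Penk 7.87 there. Of the 7 microglial and immune markers, 5 were highest in the VTA. The VTA is a mixed tissue, and fewer cells of a type and less RNA per cell cannot be told apart in it.

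The bacterial spike-in controls, which are added to each sample in set amounts and match no rat gene, were higher with longer access. The mean over the 9 spike-in probe sets was 11.57, 11.68 and 11.40 on the no access arrays, 11.85, 12.01 and 11.98 on the short access arrays, and 12.44, 12.25 and 12.26 on the long access arrays. No 2 of the 3 groups overlapped in this mean. Among the 9 single probe sets, every short access array was above every no access array in 7. Every long access array was above every short access array in 6. Long access arrays averaged 12.32 ± 0.11 and no access arrays 11.55 ± 0.14 (SD, n = 3 each), a difference of 0.77 (two-sided exact permutation test p = 0.1, the smallest that 3 against 3 arrays allow). All 9 spike-in probe sets had every long access array above every no access array, with differences from 0.66 to 0.94. The 6 antisense controls, which probe the opposite strand of rat actin and Gapdh, averaged 8.04 ± 0.19 on long access arrays and 7.10 ± 0.03 on no access arrays (SD, n = 3 each; exact permutation p = 0.1), and 6 of 6 did not overlap. The log2 ratio of the 3′ to the 5′ actin probe sets was 0.19 ± 0.02 on long access arrays and -0.01 ± 0.03 on no access arrays, and that of Gapdh 0.50 ± 0.14 and 0.31 ± 0.01 (SD, n = 3 each; exact permutation p = 0.1 for each). Over the 15 such comparisons of control measures the smallest adjusted p was 0.167. The long minus no access difference of the spike-ins was 0.36 in the septum, 0.19 in the accumbens, -0.05 in the amygdala, -0.29 in the medial prefrontal cortex and -0.66 in the lateral hypothalamus. As each array was scaled to its rat signal, these levels are relative to that signal, and their part in the gene results was not tested beyond a fit that adjusts for each array's spike-in level, given with the counts.

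**Figure D1:**
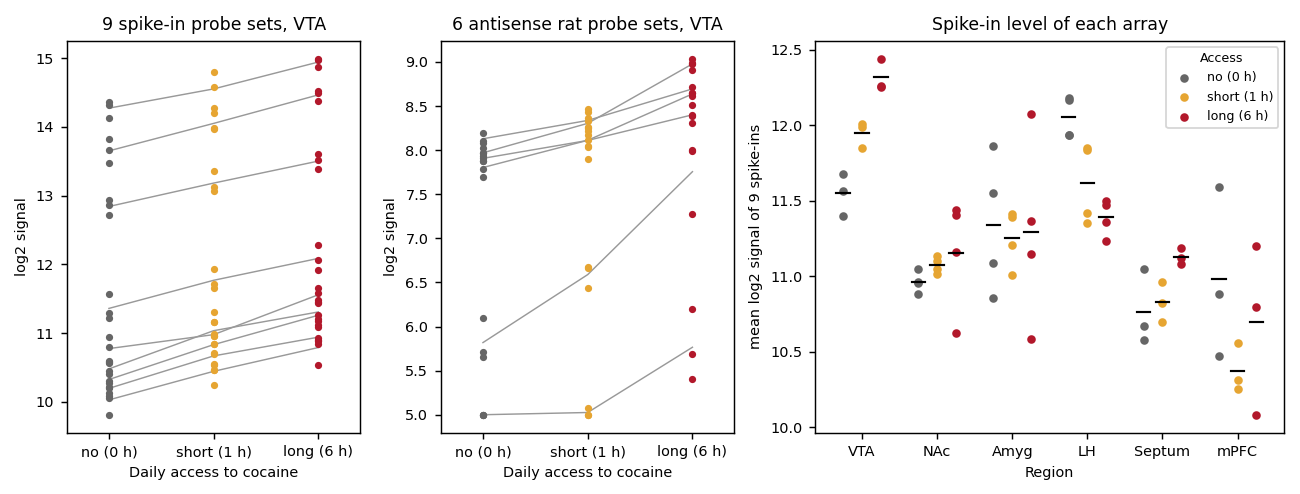
Left and middle, log2 signal of each of 9 spike-in and 6 antisense probe sets on the 9 VTA arrays by daily access (points, arrays; lines, group means of a probe set). Right, mean log2 signal of the 9 spike-ins on each of 63 arrays by region and access (bars, group means): the VTA long access arrays lie between 12.25 and 12.44 and the no access arrays between 11.40 and 11.68.

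Long access went with modest changes in a small share of the genes on this neurobiology array. Of 722 probe sets bright enough to test, 21 were called (2.91%), 14 higher with long access (1.94%) and 7 lower (0.97%). The calls stand for 15 named genes and 3 probe sets with no symbol. Genes called higher were the adenosine receptor Adora1, the G protein subunits Gnb1 and Gnb2, the kainate receptor subunit Grik5, S100b, Apoe, Cspg5, Igf2 and Capns1. Genes called lower were Igfbp5, Gmfb, Vdac1, Map2, Sod1 and Fez1. Called rises ran from 1.25-fold to 2.02-fold and called falls from 1.23-fold to 1.55-fold. The median difference over all tested probe sets was 0.0051 and its quartiles were -0.15 and 0.15, with a median standard error of 0.16.

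In all 21 called probe sets the long and no access arrays did not overlap, which was true of 174 of the 722 tested (24.1%). At an unadjusted p under 0.05 there were 104. With the replicate number as a block 47 were called, 27 higher and 20 lower, with all 21 among them. The block was chosen from these same arrays, and the labels do not say what a replicate number marks. Calls made only with the block, given below beside the main values, are therefore no independent second test. When each array's spike-in level was adjusted for, 0 were called by limma, with 60 at an unadjusted p under 0.05; the standard errors were then 3.52 times as large, and 18 of the 21 kept their direction. In 1 fit of all 63 arrays, where the spread is shared over the regions, 0 were called by limma, the smallest adjusted p was 0.0792, 36 had an unadjusted p under 0.05, and the standard errors were 2.81 times as large. Of the 14 called rises, 11 were smaller than the spike-in difference of 0.77. So were nearly all tested differences, whose 95th percentile was 0.42, so the count is not particular to the calls.

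**Figure D2:**
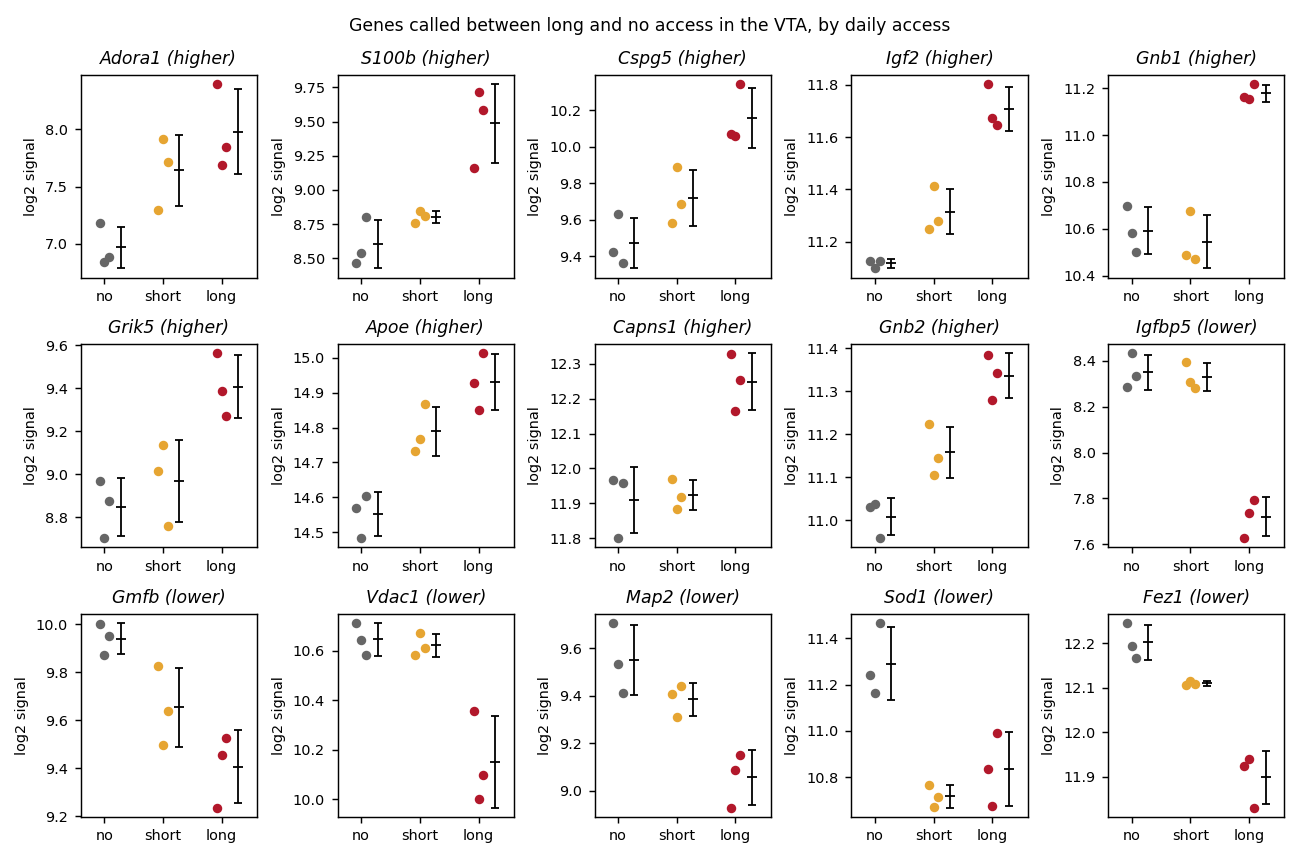
Log2 signal on the 9 VTA arrays by daily access (no, 0 h; short, 1 h; long, 6 h) for the 15 genes called between long and no access, each by its probe set with the smallest p (points, arrays; bars, mean ± SD, n = 3). In every panel the long access arrays lie on 1 side of the no access arrays; the vertical axes differ and do not start at 0.

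Among receptors, Adora1, the inhibitory adenosine receptor that restrains transmitter release, had the largest called difference. Its signal was 8.40, 7.69 and 7.85 on long access arrays, against 7.18, 6.84 and 6.89 on no access arrays. All long access arrays were higher, with replicate 1 standing above the other two. The difference was 1.01 ± 0.23 (SE), 2.02-fold, with an adjusted p of 0.0292, and short access arrays had an intermediate mean of 7.64. Adora1 is 1 of 8 tested genes of the adenosine, purine and cannabinoid receptor list, and the other 7 were not called. P2rx4, an ATP-gated channel, differed by 0.24 (adjusted p = 0.537), and the cannabinoid receptor Cnr1 by -0.24 (adjusted p = 0.669).

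Grik5 encodes a high-affinity subunit of kainate-type glutamate receptors. It read 9.56, 9.39 and 9.27 on long access arrays, against 8.97, 8.70 and 8.88 on no access arrays. The 2 groups were separate, and the difference was 0.56 ± 0.13 (SE; adjusted p = 0.0397). It was the only call among 14 tested ionotropic glutamate receptor genes, whose median difference was -0.02. Grin2c, a subunit of NMDA receptors, differed by 0.41 ± 0.12 (SE) and was not called (adjusted p = 0.094), and its dimmer probe set differed by 0.23. The AMPA receptor subunit Gria1 differed by -0.25 (adjusted p = 0.537) in the brightest of its 3 tested probe sets and by -0.37 and 0.53 in the others (adjusted p = 0.443 and 0.503). Of 6 tested metabotropic glutamate receptor and transport genes none was called, and 1 of the 6 had a positive difference. Over all 454 tested genes, 1 probe set a gene, 230 differences were positive.

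The beta subunit of heterotrimeric G proteins carries signals from receptors such as Adora1 and Drd2 to ion channels and enzymes. For Gnb1, 4 of 5 tested probe sets were called higher. The one with the smallest p read 11.16, 11.15 and 11.22 on long access arrays, against 10.70, 10.58 and 10.50 on no access arrays. Its difference was 0.59 ± 0.08 (SE), 1.501-fold, with an adjusted p of 0.00294. The other 3 called Gnb1 probe sets differed by 0.62, 0.58 and 0.46. The fifth, which was dimmer, differed by -0.08 ± 0.14 (SE). Short access arrays stayed near no access arrays in the first of these, with a mean of 10.54, and long against short access was called too (0.63, adjusted p = 0.00203).

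Gnb2, the closely related second beta subunit, had 1 tested probe set. It read 11.38, 11.28 and 11.34 on long access arrays, against 11.03, 11.04 and 10.96 on no access arrays. These groups were apart by more than their own spread, and the difference was 0.33 ± 0.07 (SE; adjusted p = 0.0206), with short access in between at 11.16. Gnb1 and Gnb2 were the 2 calls among 24 tested genes that signal through calcium, cyclic AMP or protein kinase C. In that list 18 of 24 differences were positive, against 230 of all 454 tested genes, and the median was 0.06. Camk2b, the beta subunit of calmodulin-dependent kinase II, differed by 0.08 ± 0.07 (SE; adjusted p = 0.588) in its brighter probe set, which stands for it in the list, and by 0.49 ± 0.15 (SE; adjusted p = 0.0969) in the dimmer one.

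Promoter sequences are shown for Gnb1 and Gnb2, the pair of G protein subunits that were both called, and for Capns1, which shares a motif with Gnb2. They are RefSeq sequences of build GRCr8, 250 bases before to 50 bases after the annotated start, 5′ to 3′ on the gene's strand. Capitals mark matches on either strand to TGACG, the half-site of the cyclic AMP response element bound by CREB, to TGANTCA, the element bound by AP-1 factors of the Fos and Jun family, and to GGGCGG, the GC box bound by Sp1. The Gnb1 window lies at chr5:171378113-171378412 (plus strand), that of Gnb2 at chr12:24795529-24795828 (plus strand) and that of Capns1 at chr1:94582172-94582471 (minus strand).
Gnb1: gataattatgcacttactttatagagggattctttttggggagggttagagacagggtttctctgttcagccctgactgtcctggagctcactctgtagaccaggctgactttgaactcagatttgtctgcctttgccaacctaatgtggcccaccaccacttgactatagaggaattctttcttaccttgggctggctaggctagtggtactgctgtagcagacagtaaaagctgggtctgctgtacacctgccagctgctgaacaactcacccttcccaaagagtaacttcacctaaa
Gnb2: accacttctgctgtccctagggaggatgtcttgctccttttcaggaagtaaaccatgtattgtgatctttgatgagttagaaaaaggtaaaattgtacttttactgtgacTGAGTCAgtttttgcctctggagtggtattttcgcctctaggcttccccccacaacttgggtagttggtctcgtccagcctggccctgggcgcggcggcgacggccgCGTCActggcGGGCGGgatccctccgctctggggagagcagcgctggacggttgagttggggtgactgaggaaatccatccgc
Capns1: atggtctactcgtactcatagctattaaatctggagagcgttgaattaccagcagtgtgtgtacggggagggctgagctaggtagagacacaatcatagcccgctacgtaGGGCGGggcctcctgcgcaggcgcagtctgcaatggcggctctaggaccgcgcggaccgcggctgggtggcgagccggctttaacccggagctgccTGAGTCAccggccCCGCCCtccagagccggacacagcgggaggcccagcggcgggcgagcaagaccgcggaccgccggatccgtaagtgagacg
The Gnb1 window holds none of these letters and no CG pair, at 47.7% G and C. The Gnb2 window holds 1 match to each of the 3, and the Capns1 window 1 AP-1 match and 2 GC boxes, with 15 and 30 CG pairs. Of the 15 called genes 14 matched a promoter in the table. Among these 14, TGACG was found in 4, TGANTCA in 2, GGGCGG in 7 and the full element TGACGTCA in 0. Over the 348 tested genes with a promoter the shares were 29.6% for TGACG, 8.33% for TGANTCA, 58.6% for GGGCGG and 3.45% for TGACGTCA. TGACGTCA contains TGACG on both strands. Over all 27457 promoters of the table they were 21.96%, 7.33%, 34.9% and 1.91% in the same order. The matches are descriptions of letters and not of bound sites.

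Of the astrocyte marker list, 2 genes, S100b and Apoe, were called higher, each by 1 of 2 tested probe sets and not by the brighter. S100b, a calcium-binding protein of astrocytes, read 9.16, 9.72 and 9.59 on long access arrays, against 8.46, 8.54 and 8.80 on no access arrays. The difference was 0.89 ± 0.15 (SE), 1.85-fold (adjusted p = 0.00718). A second S100b probe set, far brighter at a mean of 14.15 with long access and 14.13 with no access, differed by 0.02 ± 0.06 (SE) and was not called. The 2 S100b probe sets thus disagree.

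Apoe, the main lipid carrier of the brain, made largely by astrocytes, read 14.93, 14.85 and 15.01 on long access arrays, against 14.57, 14.48 and 14.60 on no access arrays. The groups did not overlap, and the difference was 0.38 ± 0.06 (SE; adjusted p = 0.00718), with short access in between at 14.79. The other Apoe probe set differed by 0.23 ± 0.10 (SE; adjusted p = 0.294), and it was called with the replicate block (adjusted p = 0.0388). Cspg5, a membrane-bound chondroitin sulfate proteoglycan of neural tissue, read 10.07, 10.06 and 10.35 on long access arrays, against 9.43, 9.63 and 9.36 on no access arrays. It was higher on every long access array, by 0.69 ± 0.12 (SE; adjusted p = 0.0074). Bcan, another proteoglycan of the brain's matrix, differed by 0.24 ± 0.07 (SE) and was not called (adjusted p = 0.116), and was called with the replicate block (adjusted p = 0.0441).

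Gmfb, glia maturation factor beta, a regulator of actin branching, was called lower. It read 9.24, 9.46 and 9.53 on long access arrays, against 10.0002, 9.87 and 9.95 on no access arrays. Every long access array was below every no access array, by a mean of 0.53 on the log2 scale (SE 0.11, adjusted p = 0.0206), and the short access mean was 9.65.

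The astrocyte marker list was not tested as a whole, and only counts and medians of its members are given. With 1 probe set a gene, the brightest, 0 of its 8 tested members were called by limma and the median difference was 0.01; S100b and Apoe were called by their other probe sets. Signals of a list's markers were also summed before taking log2, so that the brightest weigh most. For the 8 astrocyte markers, of which Apoe (mean 15.01) was the brightest, this was 16.02 to 16.15 on long access arrays. On no access arrays it was 15.90 to 16.09, which overlaps. That of the 6 oligodendrocyte markers, of which Mbp was the brightest, was 15.791 to 15.922 with long access and 15.595 to 15.788 with no access. These ranges narrowly did not overlap. Mbp, the myelin basic protein gene, averaged 15.04 on long access arrays and 14.79 on no access arrays and was not called (adjusted p = 0.113), but was with the replicate block (adjusted p = 0.0069). Mag, another myelin gene, differed by 0.22 in each of its 3 probe sets (adjusted p = 0.0643, 0.224 and 0.32, the first 0.0377 with the block). Other oligodendrocyte markers did not rise. Mog averaged 11.55 on long access arrays and 11.68 on no access arrays, and Cnp 12.13 and 12.20. By the brightest probe set 4 of the 6 had a positive difference, 0 were called by limma and the median was 0.09. The microglial and immune list had such values of 12.078 to 12.103 with long access and 12.097 to 12.155 with no access, which overlap, with Tnf at the floor. The part of cell composition in the called differences was not tested.

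Of the insulin-like growth factor genes, Igf2 was called higher by 1 of 4 tested probe sets and Igfbp5 lower by 1 of 2. Igf2, a growth factor abundant in choroid plexus and meninges, had a probe set at 11.80, 11.67 and 11.65 on long access arrays, against 11.13, 11.10 and 11.13 on no access arrays. The separation was many times the spread within either group. The difference was 0.59 ± 0.07 (SE), 1.51-fold, with an adjusted p of 0.000926, and long against short access was called as well (0.39, adjusted p = 0.0133). The other 3 tested Igf2 probe sets were dimmer and differed by 0.25, -0.11 and -0.02, none of them called. The other tested markers of choroid plexus and meninges had close means in both groups: Igfbp2 averaged 10.31 with long access and 10.27 with no access, and Enpp2 averaged 10.95 and 11.08. The log2 of the summed signals of the 3 markers, Igf2 included, was 12.63 to 12.75 on long access arrays and 12.44 to 12.47 on no access arrays.

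Igfbp5, a secreted protein that binds insulin-like growth factors, was called lower. It read 7.63, 7.74 and 7.79 on long access arrays, against 8.28, 8.43 and 8.33 on no access arrays. Short access arrays, at a mean of 8.33, lay with the no access arrays, and long against short access was called (-0.61, adjusted p = 0.0253). The difference from no access was -0.63 ± 0.13 (SE; adjusted p = 0.0206), and a second, dimmer probe set differed by -0.19 ± 0.24 (SE). Igf1, the other growth factor of the family, had 2 tested probe sets that disagree. The dimmer one read 7.15, 6.16 and 6.47 on long access arrays, against 8.00, 7.42 and 7.76 on no access arrays. These did not overlap, but with a spread of 0.50 (SD) among long access arrays the difference of -1.13 ± 0.29 (SE) was not called (adjusted p = 0.0603). It was called with the replicate block (adjusted p = 0.00605). The brighter Igf1 probe set averaged 7.79 with long access and 7.72 with no access, a difference of 0.07 ± 0.20 (SE; adjusted p = 0.934). Igf1r, Igfbp2, Igfbp3 and Igfbp6, a receptor and binding proteins of the same list, were tested and not called. Of 23 tested trophic factor and receptor genes, 1 rose, 1 fell and 21 did not pass, and the median difference was -0.02.

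Capns1 encodes the small regulatory subunit shared by the calcium-dependent calpain proteases. It read 12.33, 12.17 and 12.25 on long access arrays, against 11.97, 11.80 and 11.96 on no access arrays. Long access arrays were all higher, by 0.34 ± 0.07 (SE; adjusted p = 0.0206), while short access arrays averaged 11.92, near no access. The other 3 Capns1 probe sets differed by 0.15, 0.15 and 0.05 and were not called.

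Vdac1 and Sod1 serve mitochondria and redox balance. Vdac1, the main channel of the outer mitochondrial membrane, read 10.36, 10.0005 and 10.10 on long access arrays, against 10.71, 10.64 and 10.58 on no access arrays. Its difference was -0.49 ± 0.10 (SE; adjusted p = 0.0156), and its second probe set differed by -0.42 ± 0.12 (SE; adjusted p = 0.0769, and 0.0388 with the replicate block). Short access arrays lay with the no access arrays at 10.62.

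Sod1, the cytosolic superoxide dismutase, had a probe set at 10.83, 10.67 and 10.99 on long access arrays, against 11.24, 11.17 and 11.47 on no access arrays. The difference was -0.46 ± 0.10 (SE; adjusted p = 0.0238). Short access arrays were as low, at a mean of 10.72, and Sod1 was called between short and no access as well (-0.57, adjusted p = 0.0143). The other 2 Sod1 probe sets, both brighter, differed by 0.08 each and were not called, so the fall rests on 1 of 3 probe sets. By its brightest probe set Sod1 is among the 19 tested stress, redox and apoptosis genes with no call. Of these 19, 14 had positive differences, against 230 of all 454 tested genes, and the median was 0.10. Psen2, a component of gamma-secretase, differed by 0.47 ± 0.16 (SE; adjusted p = 0.162) in its dimmer probe set and by -0.0012 ± 0.16 (SE; adjusted p = 0.996) in the brighter one, which stands for it in the list.

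Map2 and Fez1 belong to the machinery of dendrites and axons. Map2, which binds microtubules in dendrites, had a probe set at 8.93, 9.09 and 9.15 on long access arrays, against 9.71, 9.53 and 9.41 on no access arrays. The difference was -0.49 ± 0.11 (SE; adjusted p = 0.0282). Its other 4 probe sets differed by -0.37, -0.27, -0.22 and 0.03, and the last of these was the brightest. Fez1, a kinesin adaptor in axonal transport, read 11.92, 11.94 and 11.83 on long access arrays, against 12.25, 12.19 and 12.17 on no access arrays. It was lower on every long access array, by a difference of -0.30 ± 0.06 (SE; adjusted p = 0.0156). By the brightest probe set none of 11 tested cytoskeleton genes was called. Mapt, the tau gene, differed by 0.05 (adjusted p = 0.783) in its brightest probe set, by -0.20 (adjusted p = 0.21, and 0.0388 with the replicate block) in the next and by -0.0076 in the third.

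**Figure D3:**
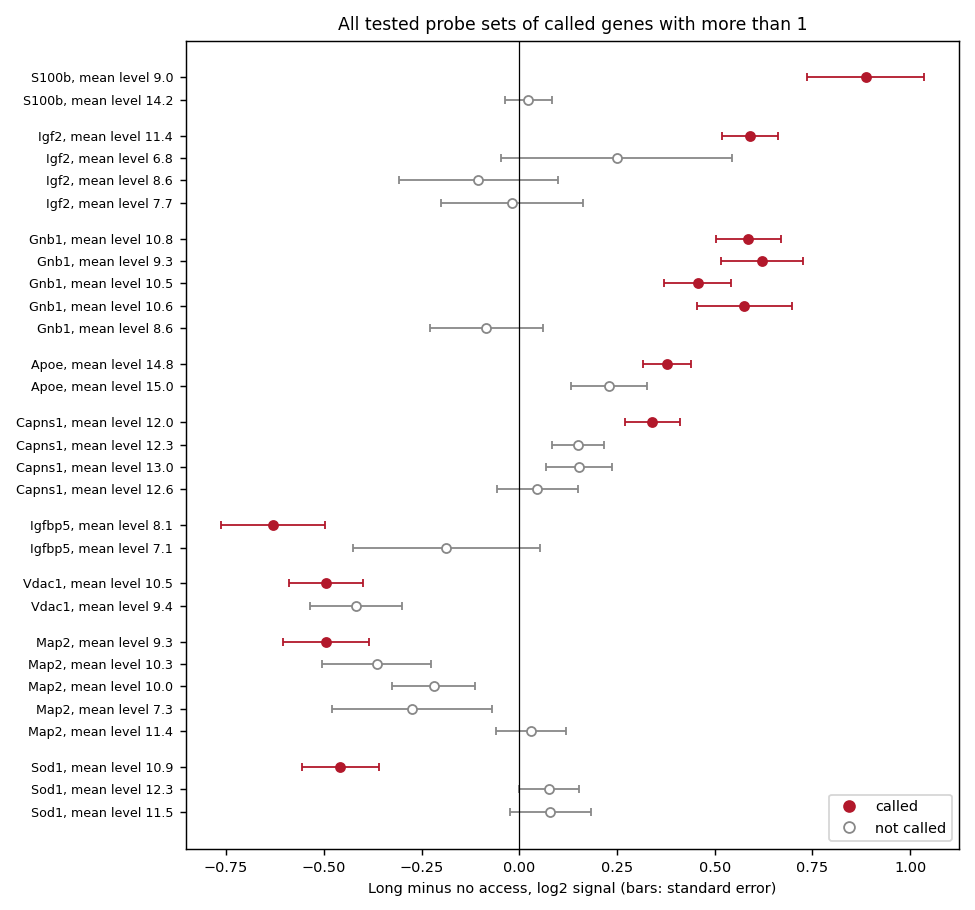
Long minus no access difference in log2 signal (horizontal axis, ± SE) of every tested probe set of the 9 called genes that have more than 1, with the mean log2 level over the 9 VTA arrays beside each name. Gnb1 has 4 of 5 probe sets called, whereas S100b, Igf2, Sod1, Map2, Capns1, Igfbp5, Apoe and Vdac1 have 1 each.

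The probe set M28648_s_at, which has no symbol in the annotation, had one of the 2 smallest adjusted p-values, 0.000926. It read 10.31, 10.08 and 10.28 on long access arrays, against 9.54, 9.44 and 9.37 on no access arrays, a difference of 0.77 ± 0.09 (SE). The other unnamed calls were AF028784cds#1_s_at with 0.44 ± 0.07 (SE; adjusted p = 0.00718) and S65355_g_at with -0.46 ± 0.10 (SE; adjusted p = 0.0282). To reach 8 genes in the lower direction, the 2 next smallest p-values belonged to Slco1a4, an organic anion transporter of brain vessels, and Pja2, a ubiquitin ligase. Slco1a4 differed by -0.32 ± 0.08 (SE) and Pja2 by -0.34 ± 0.09 (SE), each with an adjusted p of 0.0603, and both were called with the replicate block (adjusted p = 0.0441 and 0.0198). The other 2 Pja2 probe sets differed by -0.25 and -0.14 and were not called.

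Of the genes that define dopamine neurons, 0 of 7 tested were called by limma. Th, the rate-limiting enzyme of dopamine synthesis, read 13.75, 13.61 and 13.74 on long access arrays, against 13.55, 13.47 and 13.65 on no access arrays. These ranges overlapped, and the difference was 0.15 ± 0.07 (SE; unadjusted p = 0.0419 and adjusted p = 0.32 with limma). Slc6a3, the dopamine transporter, had 2 tested probe sets, and the brighter one, which stands for it among the markers, averaged 12.10 with long access and 11.99 with no access, a difference of 0.12 ± 0.08 (SE; adjusted p = 0.507). The other read 11.52, 11.38 and 11.43 on long access arrays, against 11.28, 11.22 and 11.26 on no access arrays. In it every long access array was higher, but the difference of 0.19 ± 0.09 (SE) was not called (adjusted p = 0.351).

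Slc18a2, the vesicular monoamine transporter, read 10.58, 10.77 and 10.65 on long access arrays, against 10.91, 11.07 and 10.98 on no access arrays. The arrays did not overlap, and the difference of -0.32 ± 0.08 (SE) was not called (adjusted p = 0.0643), but was with the replicate block (adjusted p = 0.0162). Its second probe set, about as bright, differed by -0.20 ± 0.08 (SE; adjusted p = 0.28). Maoa, the monoamine oxidase that breaks dopamine down, differed by -0.40 ± 0.11 (SE; adjusted p = 0.0716, and 0.0374 with the block). The other 2 Maoa probe sets differed by -0.31 (adjusted p = 0.0846, and 0.0441 with the block) and -0.18 (adjusted p = 0.525).

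Ddc differed by 0.08 ± 0.09 (SE) in its brighter probe set and by -0.08 ± 0.10 in the other. Sncg, a synuclein of these neurons, differed by -0.06 ± 0.10, Chrna6, a nicotinic receptor subunit concentrated in them, by 0.29 ± 0.20, and Drd2, their autoreceptor, by -0.08 ± 0.25. In each of these 4 genes the long and no access arrays overlapped. The log2 of the summed signals of the 7 markers, of which Th was the brightest, was 14.57 to 14.71 on long access arrays. On no access arrays it was 14.51 to 14.60.

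Of the 22 gene lists, 4 held a call by the brightest probe set in the receptor, signalling and trophic groups already described, and Vdac1 was 1 of 2 tested genes of mitochondrial respiration. Over all 454 tested genes 10 were called in this way (2.2%), 6 higher and 4 lower, with a median difference of 0.0035. No member was called by limma of the lists for GABA receptors (10 tested, median -0.04), GABA synthesis and transport (5, 0.04), acetylcholine receptors (12, -0.03), neuropeptides (10, -0.0026), neuropeptide receptors (6, -0.03) or monoamine receptors (11, -0.05). Nor was any of 26 potassium channel genes (median -0.05), 22 sodium and calcium channel and pump genes (-0.01), 19 synaptic vesicle genes (-0.05), 12 adhesion genes (0.13), 11 genes of MAP and other kinases (-0.02) or 9 activity-induced genes (0.15).

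None of the list members given next was called without the replicate block. Gabrb2, a subunit of GABA-A receptors, read 7.55, 7.47 and 7.52 on long access arrays, against 8.10, 8.05 and 7.98 on no access arrays, with a difference of -0.53 ± 0.15 (SE; adjusted p = 0.0769). Gabra3, another such subunit, differed by -0.78 ± 0.23 (SE; adjusted p = 0.0923, and 0.0441 with the replicate block). The GABA-B receptor Gabbr1 differed by 0.10 ± 0.07 (SE; adjusted p = 0.522) in the brightest of its 5 tested probe sets and by 0.30 ± 0.08 (SE; adjusted p = 0.0815, and 0.0475 with the block) in the next, and the other 3 ranged from -0.17 to 0.11.

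Sncb, beta-synuclein, differed by 0.72 ± 0.19 (SE; adjusted p = 0.0603, and 0.0377 with the block), Syt3, a calcium sensor of the synaptotagmin family, by 0.41 (adjusted p = 0.182), and the vesicle protein Syp by 0.17 (adjusted p = 0.209). The kinase Mapk9 (JNK2) had 3 tested probe sets with differences of unlike size. The one with the smallest p read 6.93, 6.94 and 6.57 on long access arrays, against 7.75, 8.29 and 7.34 on no access arrays, a difference of -0.98 ± 0.25 (SE; adjusted p = 0.0603, and 0.0499 with the block). Short access arrays averaged 6.71 in it. The brightest Mapk9 probe set differed by -0.07 ± 0.18 (SE; adjusted p = 0.908) and the third by -0.32 ± 0.38 (SE; adjusted p = 0.754). Mapk14 (p38 alpha) differed by 0.46 (adjusted p = 0.094) in its brightest probe set and by 0.28 to 0.40 in the other 3. Among neuropeptides, the vasopressin gene Avp differed by -0.57 (adjusted p = 0.21) in its brighter probe set and by -0.47 in the other. The somatostatin gene Sst differed by 0.0046 (adjusted p = 0.988) in its brighter probe set and by 0.56 (adjusted p = 0.222) in the dimmer one. The potassium channel gene Kcnc2 differed by -0.08 (adjusted p = 0.89) in its brightest probe set and by -0.24 and -0.48 (adjusted p = 0.387 and 0.209) in the others.

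**Figure D4:**
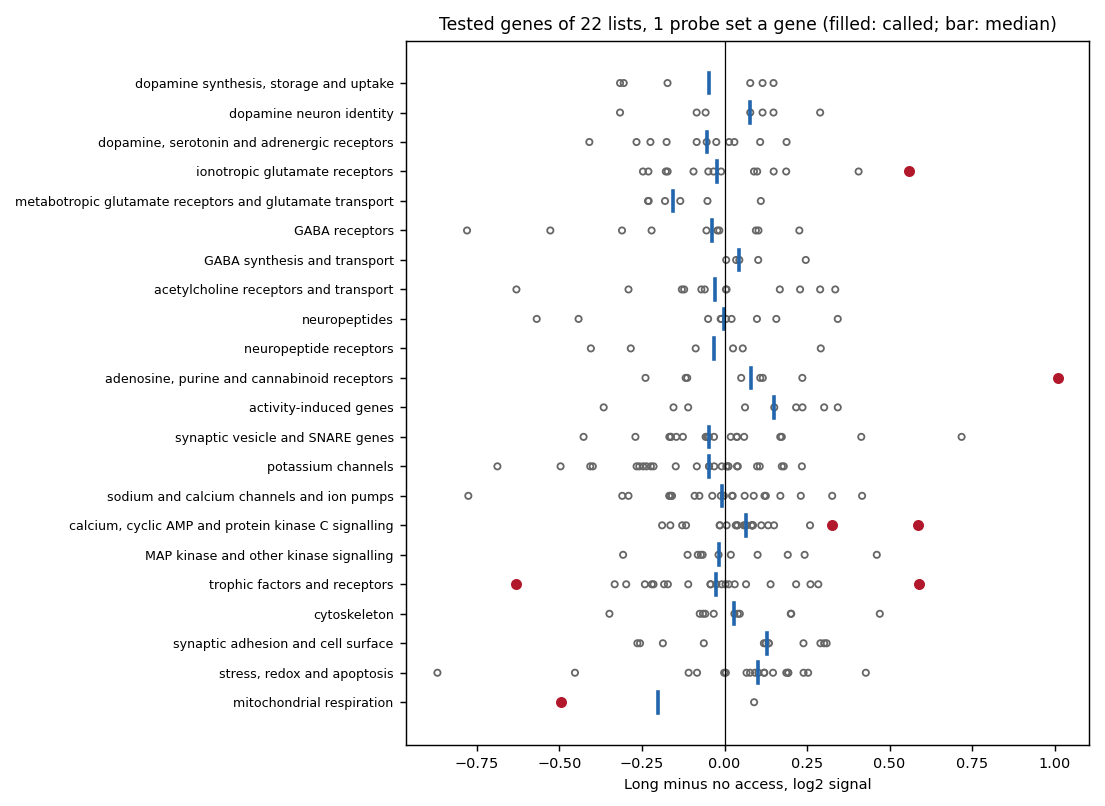
Long minus no access difference in log2 signal (horizontal axis) of each tested gene in 22 lists, by its brightest probe set (open circles, not called; filled, called; vertical bars, list medians). Medians lie between -0.20, for a list of 2 genes, and 0.15, against 0.0035 over all 454 genes.

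Short access was set beside long access for the called genes. It shares the no access arrays with the main comparison, so only values are given. For 16 of the 21 called probe sets the short access mean lay between those of long and no access. The 21 were picked for a gap between those groups, which makes a mean within the gap likely. The share over all 722 was not counted, so this is no test of a graded response. Short against no access had 6 calls among 722 (0.831%), and long against short access 19 (2.63%). Sod1 was called in short against no access. S100b (0.68, adjusted p = 0.0256), Vdac1 (-0.47, adjusted p = 0.018) and Capns1 (0.33, adjusted p = 0.0244) were called between long and short access, besides Gnb1, Igf2 and Igfbp5.

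The same genes were then read in the other 5 regions, from arrays the VTA comparison did not use. The region values come from 1 fit of all 63 arrays over the 722 VTA probe sets. In that fit 0 were called in the VTA itself, where standard errors were 2.81 times those of the main fit. Of the 21 called probe sets, the sign of the difference was that of the VTA for 14 in the septum, 12 in the nucleus accumbens, 10 in the lateral hypothalamus, 8 in the medial prefrontal cortex and 7 in the amygdala. The share of matching signs over all 722 was not counted. Over the 722 the differences correlated with those of the VTA at r = 0.06, 0.13, 0.08, -0.10 and -0.25 in the same order. In the lateral hypothalamus, where 112 of the 722 were called, 4 of the 21 were called the same way and 5 the opposite way. Gnb1, for one, differed there by -1.06 (adjusted p = 0.000299) and Apoe by -0.40 (adjusted p = 0.00119), whereas Sod1 differed by -0.63 (adjusted p = 0.0122), as in the VTA. Igf2 differed by -1.49 in the amygdala (adjusted p = 0.0113). Gnb2 differed by -0.06 to -0.01 in all 5. The spike-in level of the hypothalamic arrays was 11.39 ± 0.12 with long access and 12.05 ± 0.14 with no access (SD, n = 4 each), the opposite order to that in the VTA, and its part in these values was not tested.

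Whether the VTA differed from the rest was tested directly, as the VTA difference minus the mean difference of the other 5 regions. Of the 722, 1 was called (0.139%), and 34 had an unadjusted p under 0.05. The call was Casp1, the caspase that processes interleukin-1 beta. It read 7.25, 7.78 and 8.33 on long access arrays, against 8.47, 8.51 and 8.997 on no access arrays of the VTA. Within the VTA its difference of -0.87 ± 0.25 (SE) was not called (adjusted p = 0.084). Its difference was 0.07 to 0.66 in the other regions, with a mean of 0.31, and the VTA minus this mean was -1.18 ± 0.27 (SE; adjusted p = 0.0484). Without the lateral hypothalamus it was -1.22 (adjusted p = 0.0358). None of the 21 probe sets called within the VTA was called in this test, so none is shown to be particular to it. The nearest named gene was Apoe, with 0.40 ± 0.11 (SE; adjusted p = 0.181). Adora1 had 1.09 ± 0.46 (SE; adjusted p = 0.867).

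**Figure D5:**
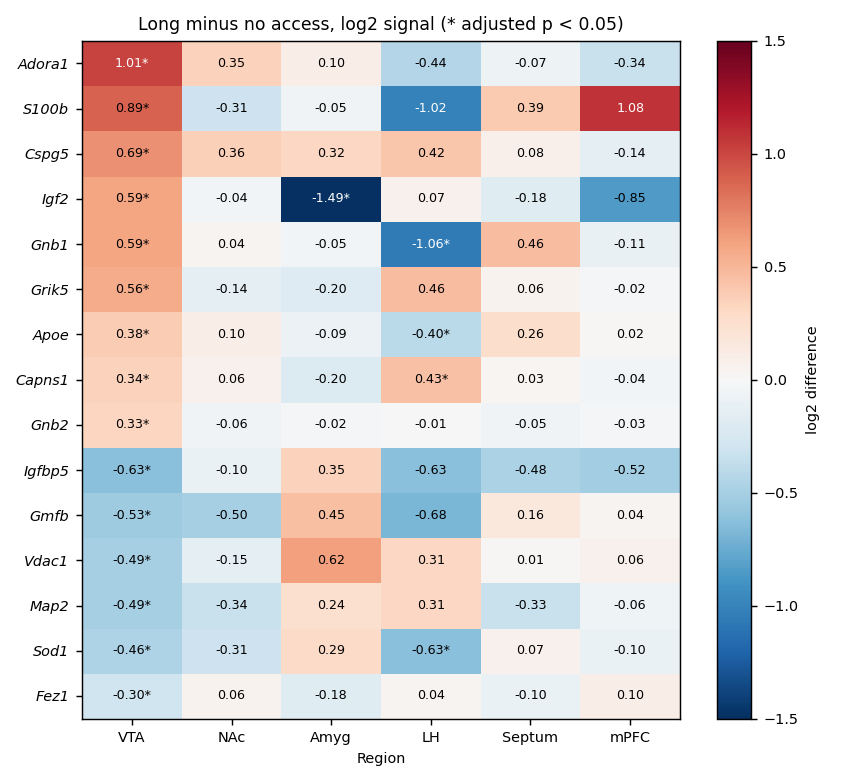
Long minus no access difference in log2 signal of the 15 called VTA genes (rows) in 6 regions (columns; NAc, nucleus accumbens; Amyg, amygdala; LH, lateral hypothalamus; mPFC, medial prefrontal cortex), with asterisks for an adjusted p under 0.05 (VTA from the 9 VTA arrays, other regions from the fit of 63). The VTA column holds all its calls, and outside it asterisks stand at Igf2 in the amygdala and at Gnb1, Apoe, Capns1 and Sod1 in the lateral hypothalamus. The asterisks of the VTA and of the other regions cannot be compared. In the fit of 63 arrays 0 of 722 probe sets were called in the VTA, so its column would hold none.

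The loss of single arrays moved the count of calls. Without no access replicate 1 there were 8 calls, without no access replicate 2 there were 10, without long access replicate 2 there were 12 and without long access replicate 3 there were 13. Calls in the lower direction then numbered 0, 1, 1 and 4. Of the 15 named genes, 5 were called with each of the 9 arrays left out in turn, and these were S100b, Cspg5, Igf2, Gnb1 and Apoe. The other 10 lost the call at least once, with Grik5 kept in 2 of 9, Igfbp5 in 3 and Adora1, Gnb2, Gmfb and Map2 in 4. The 9 include the 3 short access arrays, which do not enter the difference itself. Grik5 and Igfbp5 lost the call whenever any long or no access array was left out. Without probe sets that can bind other transcripts, marked by their name's suffix, 386 were tested and 5 called. Of the 21 calls, 14 carry such a suffix, as do 336 of the 722 tested.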

How the data were processed

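The values are those of Affymetrix Rat Neurobiology U34 arrays, on which a probe set is a group of short oligonucleotides for 1 transcript. The deposited values are linear signal intensities per probe set, computed by the authors in MAS5 according to the submitters' processing notes, without a stated version. Biotin-labelled cRNA was made from total RNA (between 1 and 5 µg), per the labels' protocols. Arrays have no counts or depth, and their number limits the precision.

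The table held 1322 probe sets. Of the 1263 that were no controls, 1137 had 1 symbol in the platform annotation, 8 several and 118 none; 1132 were found in RefSeq by Entrez identifier. The deposited trimmed means lay between 250.8 and 251.3. Arrays were scaled to a common 2% trimmed mean of 500, floored at 32 and logged (log2). Probe sets with a mean of at least 100 over the 9 VTA arrays were tested (722), and 541 were not. limma 3.58.1 in R 4.3.3 was fitted to the 3 access groups by lmFit and eBayes, with a trend in intensity, and p-values were adjusted by Benjamini-Hochberg at a threshold of 0.05. The comparison with other regions used 18 groups. The fits were tested on simulated data. Alternatives changed the scaling, floor, filter, trend, weights, samples in the fit, pairing and fold threshold. Control levels were compared by exact permutation.

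Same-numbered long and no access arrays deviated together (r = 0.31, 0.11 and 0.29 over the tested probe sets). An alternative fit therefore took the replicate number as a block, a choice made from these same data. The main fit and its 21 calls did not use it, and the labels do not say what a number marks. With the spike-in covariate, or with all 63 arrays in 1 fit, 0 probe sets were called. Genes called only with the block were thus not called in those 2 fits either. The members, lists and alternatives were chosen with earlier results of these data known. Named genes were up to 15 called each way, filled to 8 by the smallest p, the dopamine neuron genes, and up to 3 with the smallest p per list. A gene is represented in lists by its brightest probe set.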

Additional observations from a re-analysis of the deposited data

Results flagged for a closer look

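Casp1 was the only gene called in the direct test of the VTA against the other regions. Its long access difference was -0.87 in the VTA against a mean of 0.31 elsewhere. The gap was -1.18 on the log2 scale (adjusted p = 0.0484 with limma). With quantile normalization it was -1.17 and not called (adjusted p = 0.0585 with limma). The gap was -0.91 (adjusted p = 0.515) without long access replicate 1, -1.17 (adjusted p = 0.198) without long access replicate 2, and -1.45 (adjusted p = 0.0046) without long access replicate 3. Without no access replicates 1, 2 and 3 its adjusted p was 0.0705, 0.0902 and 0.318. Groups of 3 arrays are too small for a test of single outlying arrays.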

How the results depend on the processing

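The 21 calls between long and no access (14 higher, 7 lower) became 10 (8 and 2) with no filter on dim probe sets, 8 (6 and 2) with no intensity trend, 38 with array weights (17 lower), 5 (3 and 2) when probe sets able to cross-hybridise were left out, 0 with the spike-in covariate or with all 63 arrays in 1 fit, 47 (27 and 20) with the replicate block and 8 (7 and 1) at 1.5-fold or more. A mean signal of at least 200 gave 12 lower calls. Leaving out each array gave 8 to 25 calls, 8 to 16 higher and 0 to 9 lower. Of the 21, those tested kept their direction in every such fit except that with the spike-in covariate. The direct test against other regions gave 1 call, 0 with quantile normalization, and 0 to 1 with an array left out. With no floor the antisense controls' short minus no access difference was 0.39. With the spike-in covariate the sign turned for Gmfb (0.15), Sod1 (0.039), Adora1 (-0.30), Ddc (-0.094), Avp (0.25), Sncb (-0.83), Camk2b (-0.11) and Casp1 (0.98), none of them called; the covariate moves with access. With single arrays left out Sncg ranged from -0.11 to 0.036 (positive at 0.036 without no access replicate 1 and 0.014 without long access replicate 3), and Drd2 from -0.29 to 0.092 (positive at 0.092 without long access replicate 2 and 0.030 without no access replicate 2). The causes were not tested. Beyond the values given, the replicate block ended no call.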
